A study of Mus musculus with 35 samples.

Results

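Non-tumorous liver (NTL) of the MYC mouse model was set against the control livers that the series shares between its LTα/β and MYC experiments. The comparison uses 7 of the 35 arrays of the series, 3 titled MYC, NTL and 4 titled LTα/β - MYC, control, chosen by title. The series measured liver RNA of 3 mouse models of liver cancer on Affymetrix gene arrays, with 1 array per sample and values on a log2 scale. MYC NTL came, by the labels, from TRE-MYC mice crossed to LAP-tTA mice, in which the tetracycline-controlled activator is driven by a liver-specific promoter. Doxycycline chow (200 mg per kg) kept MYC off until 8 weeks of age and was then withdrawn. The shared controls were mice negative for the transgene, matched by the labels for sex and age. Beside them stand 3 groups used for scale: 5 MYC tumors of the same cross, 5 NTL arrays of LTα/β transgenic tg1223 mice (LT NTL, followed for 12 months) and 5 livers of untreated controls of the diethylnitrosamine experiment (DEN controls).

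All 7 arrays carry different mouse identifiers, so each counts as 1 animal. For MYC NTL, the mouse identifiers start with WT, while the titles and sources name MYC mice, and no MYC NTL identifier recurs among the MYC tumors. Whether these livers carried an active MYC transgene is therefore taken from the labels alone. The sources used here do not give the strain, the clock time of killing or the age of the MYC mice at killing, and food was freely available in all groups. The identity of a model, its strain, its collection and its array batch cannot be told apart in this design. Doxycycline chow is recorded for the MYC mice and not for the shared controls, and its part in the differences was not tested.

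NTL is the tissue that surrounds tumors in a tumor-bearing liver and is often taken as the nearest normal tissue. Liver RNA also follows a daily cycle: CLOCK and ARNTL switch on their own repressors and many metabolic genes, and feeding, fasting, sex and strain shift large sets of liver genes. MYC, the factor driven by the transgene, raises genes for ribosome assembly and cell growth in many tissues.

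Xist, which is transcribed from the inactive X, was 5.31, 4.85 and 4.42 in MYC NTL replicates 1 to 3, against 4.35, 5.29, 12.20 and 6.13 in control replicates 1 to 4. Control replicate 3 therefore stood apart in a group that the labels call sex-matched. The Y-linked genes Eif2s3y, Kdm5d and Uty were at 3.88, 4.21 and 3.57 in that array and at 7.67 or more in the other 6. Control replicates 3 and 4 also stood apart from replicates 1 and 2 in several clock genes. Among the groups used for scale, Xist was high in 4 of 5 LT NTL arrays, 1 of 5 DEN controls and none of 5 MYC tumors. Between MYC NTL and LT NTL, 15 of 22 male-biased and 9 of 14 female-biased liver genes were called, against 8.65% of all genes. Sex and model therefore cannot be told apart in that comparison. Hepatocyte markers differed little: the mean level of 13 such genes lay between 12.94 and 12.95 in MYC NTL and between 12.83 and 12.93 in the controls, and none of the 13 passed the test. Alb, the albumin gene, was 13.77, 13.73 and 13.77 in MYC NTL, against 13.62, 13.66, 13.76 and 13.72 in the controls.

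Of 18820 genes tested, 721 passed the test between MYC NTL and the shared controls, which is 3.83%. The test was limma's moderated test, fitted on all 35 arrays with each of the 8 groups at its own level. P-values were adjusted over all genes by Benjamini-Hochberg, and a call means an adjusted p below 0.05. There were 313 genes higher and 408 lower in MYC NTL, and 176 of them changed by at least 2-fold. The split depends on scaling: 43.4% of called genes were higher as deposited, 56.3% after repeated quantile normalization and 74.0% after each array was centred on its median, which moves the difference between the groups by 0.10 log2 units. For comparison, 828 genes (4.4%) were called between MYC NTL and DEN controls, and 513 genes (2.73%) between the shared controls and DEN controls, both being normal liver by the labels. Between MYC tumors and MYC NTL, a comparison added after the values were seen, 4106 genes were called (21.8%). The typical spread within the group was 0.10 log2 units in MYC NTL and 0.13 in the controls, as the median over genes of the standard deviation.

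**Figure D1:**
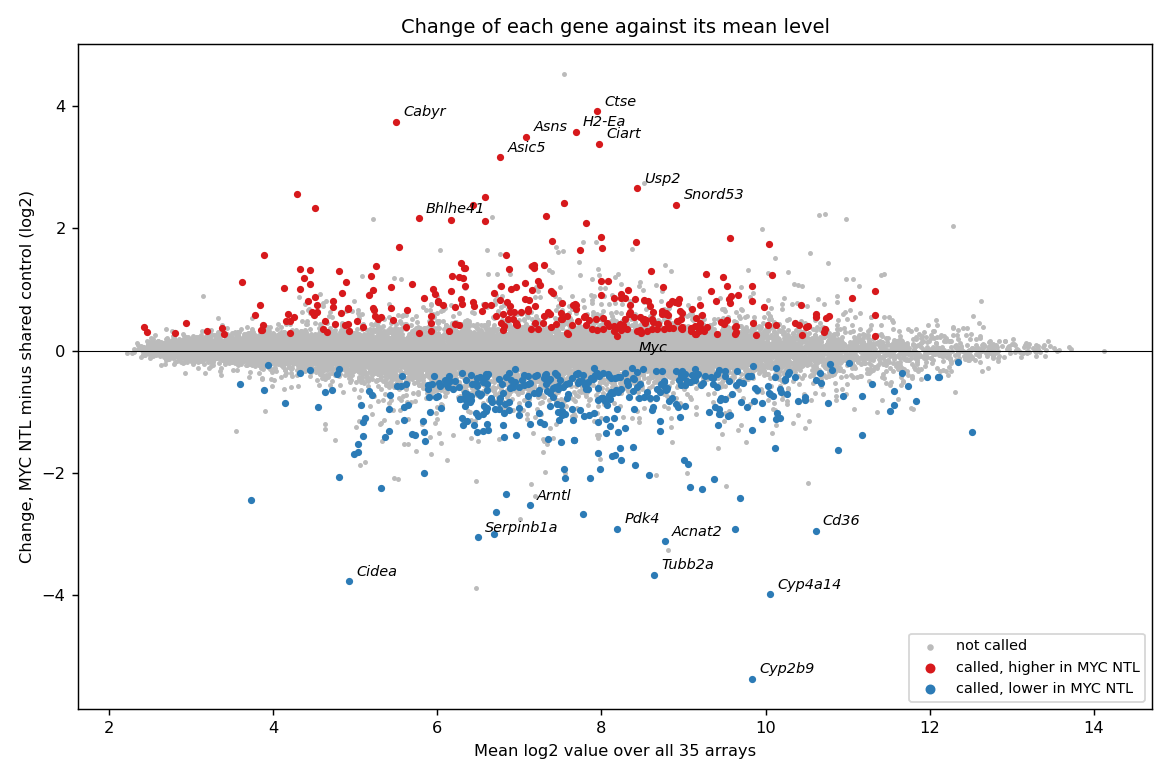
Change of each of 18820 genes between MYC NTL (3 arrays) and the shared controls (4 arrays), in log2 units, against its mean log2 value over all 35 arrays. Red and blue points are the 313 and 408 genes called higher and lower in MYC NTL, and grey points were not called. Cabyr, Ctse, H2-Ea and Asns lie at the top, Cyp2b9, Cyp4a14, Cidea and Tubb2a at the bottom, and Myc lies at -0.12.

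The gene of the transgene was examined first. Myc (chromosome 15, 61985341 to 61990361, GRCm38.p6) was at 9.48, 6.42 and 7.25 in MYC NTL, against 7.29, 7.31, 7.18 and 9.56 in the controls. The groups overlapped, and each held a single array within the range of the MYC tumors, which lay between 8.88 and 10.52. The difference was -0.12 ± 0.64 (log2, SE; limma adjusted p 0.968; exact two-sided permutation p 0.686, where 35 arrangements allow no p below 0.0571). Whether the mouse probe set also detects the transgene's RNA is not given in the sources used here.

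MYC target and cell division genes were near control levels in MYC NTL, and many were high in MYC tumors. Of 29 ribosome biogenesis genes, 1 was called higher in MYC NTL, a share near the 3.83% of all genes called there. In MYC tumors 24 were called higher against the same controls, where 20.5% of all genes were called in either direction. The single call in MYC NTL was Gnl3, encoding nucleostemin, a nucleolar GTP-binding protein, at 0.53 ± 0.15 (adjusted p 0.037). The median change of the 29 genes was 0.11 in MYC NTL and 0.49 in MYC tumors, and over all genes it was -0.0006 and -0.02. In MYC NTL 22 of the 29 changes were above 0, against 9385 of 18820 over all genes. Against DEN controls 15 of the 29 changes of MYC NTL were above 0 and 14 below, with a median of 0.016. The shared controls were lower than DEN controls in 22 of the 29, with a median of -0.11. MYC NTL was lower than LT NTL in 23 of the 29. The mean level of the 29 ran from 7.79 to 7.88 over the MYC NTL arrays and from 7.60 to 7.80 over the controls. Ncl, encoding the nucleolar protein nucleolin, differed by 0.17 ± 0.11 in MYC NTL (adjusted p 0.511). None of 23 other MYC targets was called in MYC NTL and 10 were called higher in tumors, with Odc1, the first enzyme of polyamine synthesis, at 0.20 ± 0.21 in MYC NTL (adjusted p 0.731). None of 13 members of the MYC and MAX network was called in MYC NTL, where their changes ran from -0.17 to 0.29.

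Mitosis genes gave the sharpest contrast. Of 25, none was called in MYC NTL and all 25 were called higher in MYC tumors, with median changes of -0.05 and 2.18. Mki67, the proliferation marker Ki-67, was 5.92, 5.28 and 5.75 in MYC NTL, against 6.13, 5.48, 5.90 and 5.12 in the controls, and between 8.00 and 10.04 in the tumors. Of 22 DNA replication genes, 2 rose in MYC NTL and 1 fell, and 14 rose in tumors, against 3.83% and 20.5% of all genes called. The members that rose in MYC NTL were Ccne1, encoding cyclin E1 of the G1 to S transition (1.34 ± 0.27, adjusted p 0.00357), and Mcm10, a factor for starting replication forks (1.06 ± 0.28, adjusted p 0.0253), and Mcm7, of the replicative helicase, fell by 0.55 (adjusted p 0.0171). Ccne1 was 7.20, 6.91 and 6.95 in MYC NTL, against 5.77, 5.77, 5.66 and 5.52 in the controls, and its groups did not overlap. Over all genes the 3 MYC NTL arrays lay above the 4 controls in 9.87% and below them in 12.3%. The calls of Gnl3, Mcm10 and Mcm7 were lost without single arrays, with highest adjusted p-values of 0.159, 0.182 and 0.106, whereas that of Ccne1 was kept in each of the 7 fits that left out 1 array. The tumor markers Afp (0.02 ± 0.67), encoding alpha-fetoprotein, and Gpc3 (-0.36 ± 0.90), encoding glypican 3, were not called in MYC NTL, nor was Glul (-0.27 ± 0.66), the pericentral glutamine synthetase (adjusted p 0.993, 0.916 and 0.917). These SE values pool the spread of all 8 groups, tumors included. With the 2 groups alone fitted they were 0.13, 0.21 and 0.12, and none of the 3 genes was called (limma adjusted p 0.945, 0.358 and 0.221). Among 24 fetal and tumor markers the single call, a share near the 3.83% of all genes, was Robo1, an axon guidance receptor. It fell by 1.70 (adjusted p 0.011).

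**Figure D2:**
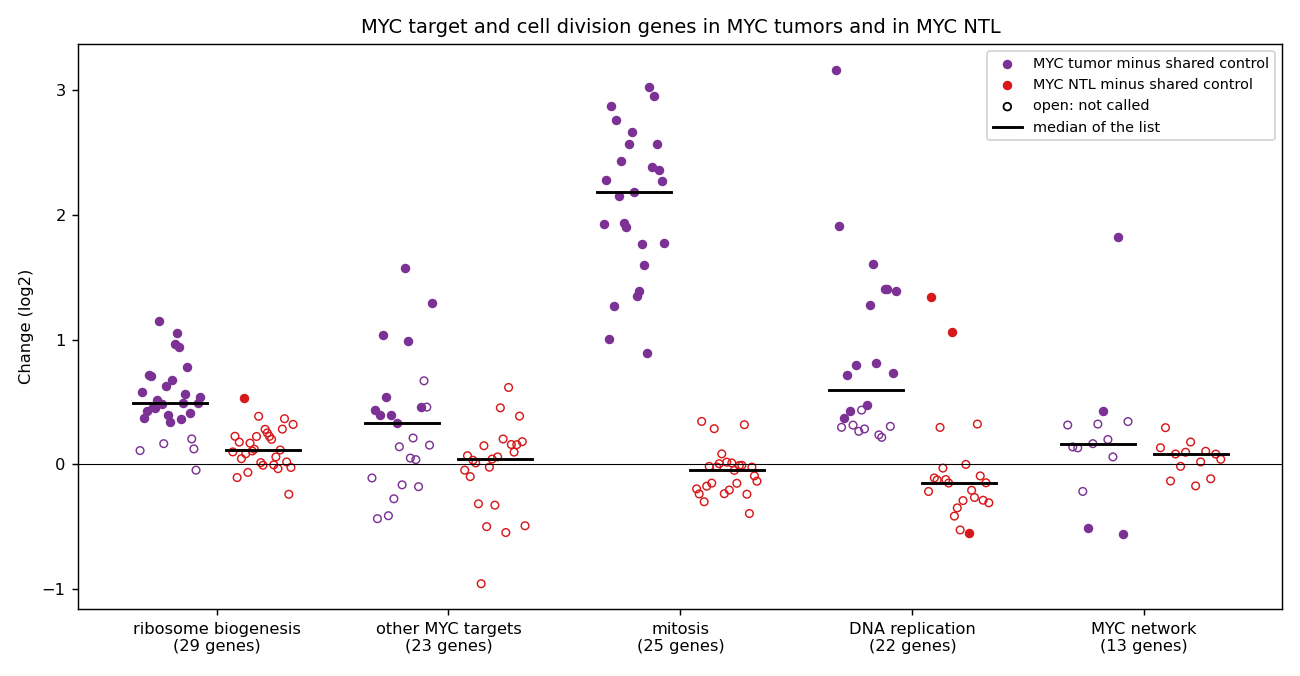
Change in log2 units of each member of 5 gene lists in MYC tumors (left in each pair, purple) and in MYC NTL (right, red), both against the same 4 shared controls. Filled points were called and open points were not, and black lines are list medians. The 25 mitosis genes have a median of 2.18 in tumors and -0.05 in NTL.

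Core clock genes differed between MYC NTL and the shared controls in both arms of the cycle. Genes of the day-phase list, which peak in mouse liver by day or at dusk, were higher in MYC NTL, where 7 of 10 were called, and the activators Arntl and Clock, which peak around the other end of the day, were lower, as 2 of 7 night-phase genes called. The background was 3.83% of all genes called in either direction. All 10 day-phase genes had a change above 0, with a median of 1.38, and the 7 night-phase genes had a median of -0.92. Because the clock time of each liver is not known, these levels are given as measured, and clock time cannot be told apart from group.

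Arntl, encoding the activator BMAL1, was 5.12, 4.80 and 4.78 in MYC NTL, against 6.77, 6.68, 7.49 and 8.79 in the controls. The MYC NTL arrays were close together and below every other array of the series, and control replicate 4 was the highest of the 4 controls. The change was -2.53 ± 0.51 (adjusted p 0.00314), a 5.79-fold difference. Its partner Clock was 8.68, 8.70 and 8.70 in MYC NTL, against 9.57, 9.29, 9.53 and 10.07 in the controls, and fell by 0.92 (SE 0.18, adjusted p 0.00238), again below every other array. Over the whole table, the 3 MYC NTL arrays lay below all 32 other arrays in 0.925% of genes and above them in 0.739%. Npas2, a paralog of Clock, was 5.37, 5.26 and 5.62 in MYC NTL, against 6.83, 6.38, 7.89 and 9.32 in the controls. These groups did not overlap, yet the change of -2.19 ± 0.74 did not pass (adjusted p 0.0967). Nfil3, a repressor at D-boxes, differed by -1.05 ± 0.37 (adjusted p 0.113), with control replicate 4 at 8.90 and the other controls at 7.32 to 7.37. The repressor genes Cry1 and Bhlhe40 and the nuclear receptor gene Rora differed by 0.02, 0.11 and -0.08 (adjusted p 0.989, 0.957 and 0.837).

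The called rises in the day-phase list were 4 clock repressors, the D-box factors Tef and Hlf, and Usp2. Ciart, a repressor of CLOCK and ARNTL, was 10.51, 10.91 and 10.75 in MYC NTL, against 8.65, 9.03, 6.23 and 5.42 in the controls. Control replicates 3 and 4 were lower than replicates 1 and 2, and the change was 3.39 ± 0.84 (adjusted p 0.0171). Bhlhe41, encoding the repressor DEC2, was 7.35, 7.23 and 7.52 in MYC NTL, against 5.62, 5.94, 4.64 and 4.62 in the controls, with a change of 2.16 ± 0.43 (adjusted p 0.0028). Usp2, a ubiquitin protease with a strong daily rhythm in liver, was 10.29, 10.36 and 10.23 in MYC NTL, against 8.43, 8.85, 7.03 and 6.21 in the controls (2.66 ± 0.66, adjusted p 0.0169). The same order of controls, with replicates 3 and 4 lowest, held for all 3 genes.

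Per2, a core repressor, rose by 1.14 ± 0.30 (adjusted p 0.0251) and its paralogs Per1 and Per3 differed by 1.67 ± 0.58 and 1.63 ± 0.56 without passing (adjusted p 0.11 and 0.104). Per3 was 8.84, 9.06 and 8.96 in MYC NTL, against 8.10, 8.16, 7.53 and 5.51 in the controls, so that replicate 4 alone lay below 7. The D-box activators Tef and Hlf rose by 1.14 ± 0.32 and 0.73 ± 0.20 (adjusted p 0.0408 and 0.0326). Cry2, a repressor, rose by 0.81 ± 0.20 (adjusted p 0.0159), and Nr1d2, encoding REV-ERB beta, differed by 0.69 ± 0.38 (adjusted p 0.386). Among 21 clock output genes, 3 were called higher and 1 lower, counting Ciart again. Coq10b, for a coenzyme Q binding protein of mitochondria, was 9.26, 9.19 and 9.14 in MYC NTL, against 7.84, 8.07, 7.03 and 7.26 in the controls (1.65 ± 0.25, adjusted p 0.000105). All 3 arrays lay above every other array, although a second, dimmer probe set of Coq10b differed by only 0.308. Wee1, a kinase that holds back mitosis, rose by 1.68 ± 0.47 (adjusted p 0.0354). Insig2, which retains the sterol sensor SCAP in the endoplasmic reticulum, was 10.40, 10.05 and 10.40 in MYC NTL, against 11.73, 11.43, 11.73 and 11.77 in the controls, and fell by 1.38 (SE 0.28, adjusted p 0.00364).

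The clock calls differed in how many arrays could be left out. Arntl, Clock, Bhlhe41, Coq10b and Insig2 stayed called in each of the 7 fits that left out 1 array. Ciart, Usp2, Per2, Tef and Wee1 were each lost without control replicate 3, without replicate 4 and without any single MYC NTL array, with changes of 2.75 to 3.95 for Ciart, 2.19 to 3.07 for Usp2, 0.89 to 1.32 for Per2, 0.81 to 1.30 for Tef and 1.23 to 2.01 for Wee1. Hlf was lost in 5 and Cry2 in 3 of the 7 fits, both of them without control replicate 4. With control replicates 3 and 4 both left out, Coq10b (1.24, adjusted p 0.0115) and Insig2 (-1.29, adjusted p 0.0486) stayed called. Arntl was then at -1.83, Clock at -0.74 and Bhlhe41 at 1.59 (adjusted p 0.1, 0.0564 and 0.106), Ciart was at 1.88 and Usp2 at 1.65 (adjusted p 0.382 and 0.328), and no day-phase or night-phase gene was called.

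The clock genes of the other groups had ranges that differed in width. In DEN controls Ciart ran from 6.66 to 10.04 and Arntl from 5.91 to 7.75, and in LT NTL Ciart ran from 8.75 to 9.97 and Arntl from 5.84 to 6.78. Against DEN controls, where 4.4% of all genes were called, 1 of 10 day-phase genes was called higher and 3 of 7 night-phase genes lower in MYC NTL. All 10 day-phase changes were above 0 there, with a median of 0.92. All 10 were also lower in the shared controls than in DEN controls, with a median of -0.45. MYC NTL differed from DEN controls by -2.11 in Arntl (adjusted p 0.00957), -0.74 in Clock (adjusted p 0.00982), 2.49 in Ciart (adjusted p 0.0744) and 0.79 in Bhlhe41 (adjusted p 0.315). Against LT NTL, where 8.65% of genes were called, the same differences were -1.33 in Arntl (adjusted p 0.0887), -0.47 in Clock (adjusted p 0.0847), 1.13 in Ciart (adjusted p 0.424) and 1.83 in Bhlhe41 (adjusted p 0.00485). There 1 of 10 day-phase genes was called higher and 0 of 7 night-phase genes were called. The comparisons of MYC NTL with DEN controls and with LT NTL share the MYC NTL arrays, and 4 of the 5 LT NTL arrays had high Xist. MYC tumors were near the shared controls in these lists: 1 of 10 day-phase and 0 of 7 night-phase genes were called between them, with medians of -0.37 and -0.09, where 20.5% of all genes were called. Arntl lay between 6.29 and 8.46 in the tumors. Against MYC NTL, where 21.8% of all genes were called, Ciart differed in tumors by -3.85 (adjusted p 0.000799) and Arntl by 2.61 (adjusted p 0.000245), and 9 of the 10 day-phase genes were called lower in tumors. Both comparisons of MYC NTL, with tumors and with controls, use the same 3 NTL arrays.

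**Figure D3:**
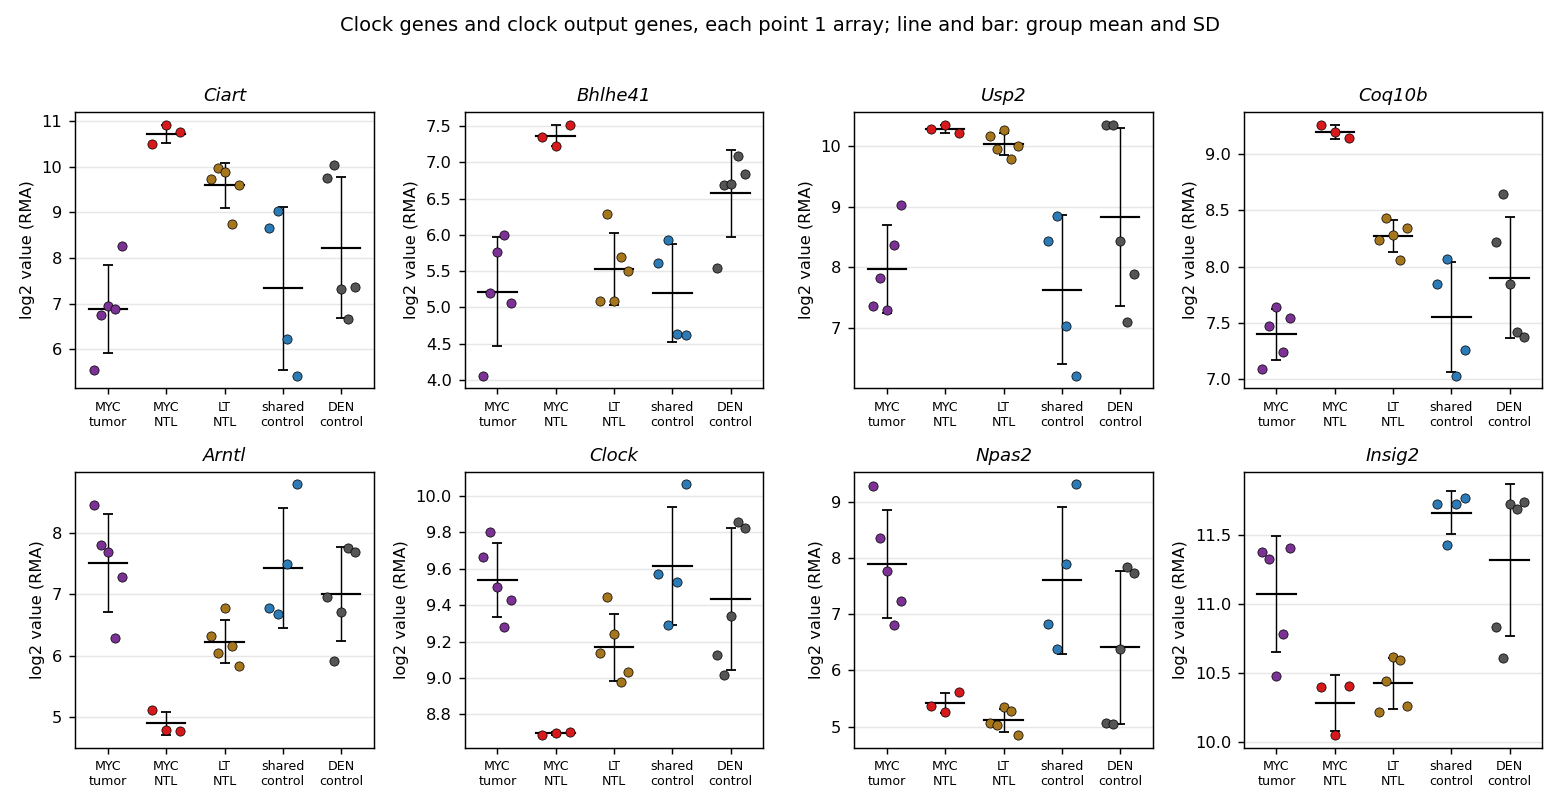
Log2 values of 8 clock and clock output genes, with 1 point per array, in MYC tumors, MYC NTL, LT NTL, shared controls and DEN controls. Lines and bars are group means and SD. MYC NTL arrays lie together at the top for Ciart, Bhlhe41, Usp2 and Coq10b and at the bottom for Arntl and Clock, while the 4 shared controls spread from 5.42 to 9.03 in Ciart.

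Promoter sequences of the clock genes called are shown because most of these genes are known direct targets of clock factors. Of 12 genes called in the clock lists, 10 had an entry in the RefSeq promoter table (GRCm38.p6), with windows from 250 bases before a start to 50 after it. Each window was searched on both strands for CACGTG (the E-box bound by CLOCK and ARNTL), TTATGTAA (the D-box) and TAGGTCA (the element bound by ROR and REV-ERB receptors), and no 2 matches overlapped. An E-box stood in windows of 4 genes, Ciart, Bhlhe41, Tef and Coq10b, of which Ciart had 3, at 116, 58 and 44 bases before the start. By window, 5 of the 16 windows of these genes held an E-box, and it is held by 7.15% of all 32851 windows of RefSeq's promoter set, a D-box by 0.938% and the ROR element by 2.61%. Since the genes come from lists of known clock genes, these shares cannot tell anything about the livers compared. Of the 5 windows, 2 are those of Tef. No match was found for Usp2, Cry2, Hlf, Clock and Insig2, which says only that these letters are not in their windows. The stretches around the motifs read as follows, 5′ to 3′ on the gene's strand, with motifs in capitals (in Coq10b the first capitals are the D-box on the opposite strand, and in Arntl the capitals are the ROR element, 30 bases after the start). Tef has windows at 2 starts, each with an E-box, and both are shown.
Ciart, chr3:95882245-95882366, minus strand: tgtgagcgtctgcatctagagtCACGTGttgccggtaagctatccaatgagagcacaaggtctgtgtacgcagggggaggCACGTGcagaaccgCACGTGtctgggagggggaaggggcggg
Bhlhe41, chr6:145865546-145865595, minus strand: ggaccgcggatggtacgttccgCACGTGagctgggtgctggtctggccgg
Tef, chr15:81802524-81802573, plus strand: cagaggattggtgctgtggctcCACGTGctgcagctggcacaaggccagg
Tef, second start, chr15:81811254-81811303, plus strand: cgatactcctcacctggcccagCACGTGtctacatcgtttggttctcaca
Coq10b, chr1:55052586-55052719, plus strand: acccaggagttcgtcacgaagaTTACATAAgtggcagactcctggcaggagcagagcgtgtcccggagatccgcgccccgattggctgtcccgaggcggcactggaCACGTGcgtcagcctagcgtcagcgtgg
Arntl, chr7:113207530-113207558, plus strand: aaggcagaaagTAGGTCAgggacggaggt

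A minority of the genes of lipid uptake, storage and oxidation were called, all of them lower in MYC NTL. Cd36, the fatty acid translocase that brings fatty acids into cells, was 7.85, 8.30 and 8.26 in MYC NTL, against 11.36, 11.05, 11.51 and 10.40 in the controls. Cd36 lay below every other array of the series and fell by 2.95 (SE 0.36, adjusted p 6.3e-06), a 7.73-fold difference. It also differed from DEN controls by -3.11 (adjusted p 5.42e-07), differed from LT NTL by -2.79 (adjusted p 4.6e-06), and was higher in MYC tumors than in MYC NTL by 2.66. Pdk4, the kinase that shuts pyruvate dehydrogenase in fasting, was 5.67, 5.90 and 5.25 in MYC NTL, against 8.88, 8.28, 8.85 and 8.10 in the controls (-2.92 ± 0.56, adjusted p 0.00199). It too lay below every other array. Acnat2, a peroxisomal acyltransferase, was 6.07, 6.40 and 6.77 in MYC NTL, against 9.40, 9.27, 10.14 and 9.31 in the controls (-3.12 ± 0.64, adjusted p 0.00398).

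For other lipid genes MYC NTL lay near at least one further group while the shared controls were higher. Cidea, a lipid droplet protein, was 4.02, 3.89 and 3.85 in MYC NTL, against 9.82, 8.87, 3.96 and 8.13 in the controls. Control replicate 3 lay within the MYC NTL range, so the groups overlapped, and DEN controls (3.85 to 4.04), LT NTL (3.70 to 4.36) and MYC tumors (3.65 to 4.21) were at a like level. The first quartile of all values on an array lay between 4.13 and 4.24. The 5 tumors of the diethylnitrosamine experiment lay higher in Cidea, at 7.06 ± 0.70 (SD, n = 5). The change of -3.78 ± 0.67 passed (adjusted p 0.000963), it became -5.02 without control replicate 3 and -3.07 without control replicate 1, and it was lost when the 2 groups alone were fitted (adjusted p 0.0854). Mogat1, of triglyceride synthesis, was 4.18, 4.36 and 3.90 in MYC NTL, against 7.25, 6.62, 5.44 and 5.56 in the controls, and differed from DEN controls by -0.76 (adjusted p 0.263). Its MYC NTL values lay within the range of MYC tumors. Pparg, the lipid-storage nuclear receptor, fell by 2.04 (SE 0.47, adjusted p 0.00906) against the shared controls and differed by -0.23 from DEN controls (adjusted p 0.863). G0s2, an inhibitor of the lipase ATGL, fell by 1.93 (SE 0.46, adjusted p 0.0127), and differed from DEN controls by -0.98 (adjusted p 0.232). The group nearest to its MYC NTL values of 6.22, 7.41 and 7.07 was MYC tumors, at 6.27 to 7.10.

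As counts, 6 of 37 lipid droplet and uptake genes were called lower and none higher. This list was added after the values were seen, so its share cannot be weighed against the 3.83% of all genes called. Against DEN controls, where 4.4% of all genes were called, 1 of the 37 was called higher and 1 lower in MYC NTL. Between the shared controls and DEN controls, 5 were called higher in the shared controls and 1 lower, where 2.73% of all genes were called. Against the shared controls the median change of the 37 in MYC NTL was -0.18, and 11 had a change above 0. Of 22 PPAR-alpha targets, genes of fatty acid oxidation, 2 were called lower and none higher: Cd36 and Cyp4a14, a fatty acid hydroxylase. Cyp4a14 was 8.06, 8.41 and 8.15 in MYC NTL, against 12.15, 12.05, 12.92 and 11.66 in the controls (-3.99 ± 0.94, adjusted p 0.0113), and DEN controls spanned 6.68 to 12.32. The median change of the 22 was -0.65. Fasting genes did not move together: 1 of 20 (Pdk4) was called, a share near the 3.83% of all genes, with a median of 0.14, and Pck1, of gluconeogenesis, differed by 0.37 ± 0.30 (adjusted p 0.621). Of 21 genes that feeding raises, 2 were called lower: Pgd, of the pentose phosphate pathway (-0.95 ± 0.19, adjusted p 0.00271), and Gpam, the first enzyme of triglyceride synthesis (-0.86 ± 0.25, adjusted p 0.0488). Fasn, fatty acid synthase, was 11.18, 11.63 and 11.65 in MYC NTL, against 12.93, 12.97, 12.22 and 11.67 in the controls (-0.96 ± 0.30, adjusted p 0.0687), and Srebf1, the factor that drives it, differed by -0.22 ± 0.27 (adjusted p 0.78). The feeding state of each mouse is not given, and its part in these differences was not tested.

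Of 20 cholesterol synthesis genes, 4 were called lower in MYC NTL and none higher, against 3.83% of all genes called, and the median was -0.52. Hmgcs1, the enzyme before the rate-limiting step, was 10.11, 9.49 and 9.72 in MYC NTL, against 11.42, 11.41, 11.26 and 11.53 in the controls (-1.64 ± 0.31, adjusted p 0.00156). Mvd and Pmvk, of the mevalonate pathway, differed by -1.50 and -1.23 (SE 0.36 and 0.30, adjusted p 0.0145 and 0.0152), and Sqle, squalene epoxidase, differed by -1.30 (SE 0.38, adjusted p 0.048). Between the shared controls and DEN controls, 5 of these 20 genes were called higher in the shared controls, against 2.73% of all genes called. Against DEN controls none of the 20 was called in MYC NTL, with Hmgcs1 at -0.60 (adjusted p 0.281), and against LT NTL, where 8.65% of all genes were called, 5 were called lower. Among all the metabolic genes named here, Cd36, Pdk4, Acnat2, Cidea, Mogat1, Pgd and Hmgcs1 stayed called in each fit that left out 1 array. Cyp4a14 and Pparg were lost without MYC NTL replicate 1 (adjusted p 0.0616 and 0.0589), and G0s2 without it or without control replicate 3 (highest adjusted p 0.13). Gpam, Mvd, Pmvk and Sqle were lost without several single arrays, with highest adjusted p-values of 0.195, 0.0823, 0.0885 and 0.255.

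**Figure D4:**
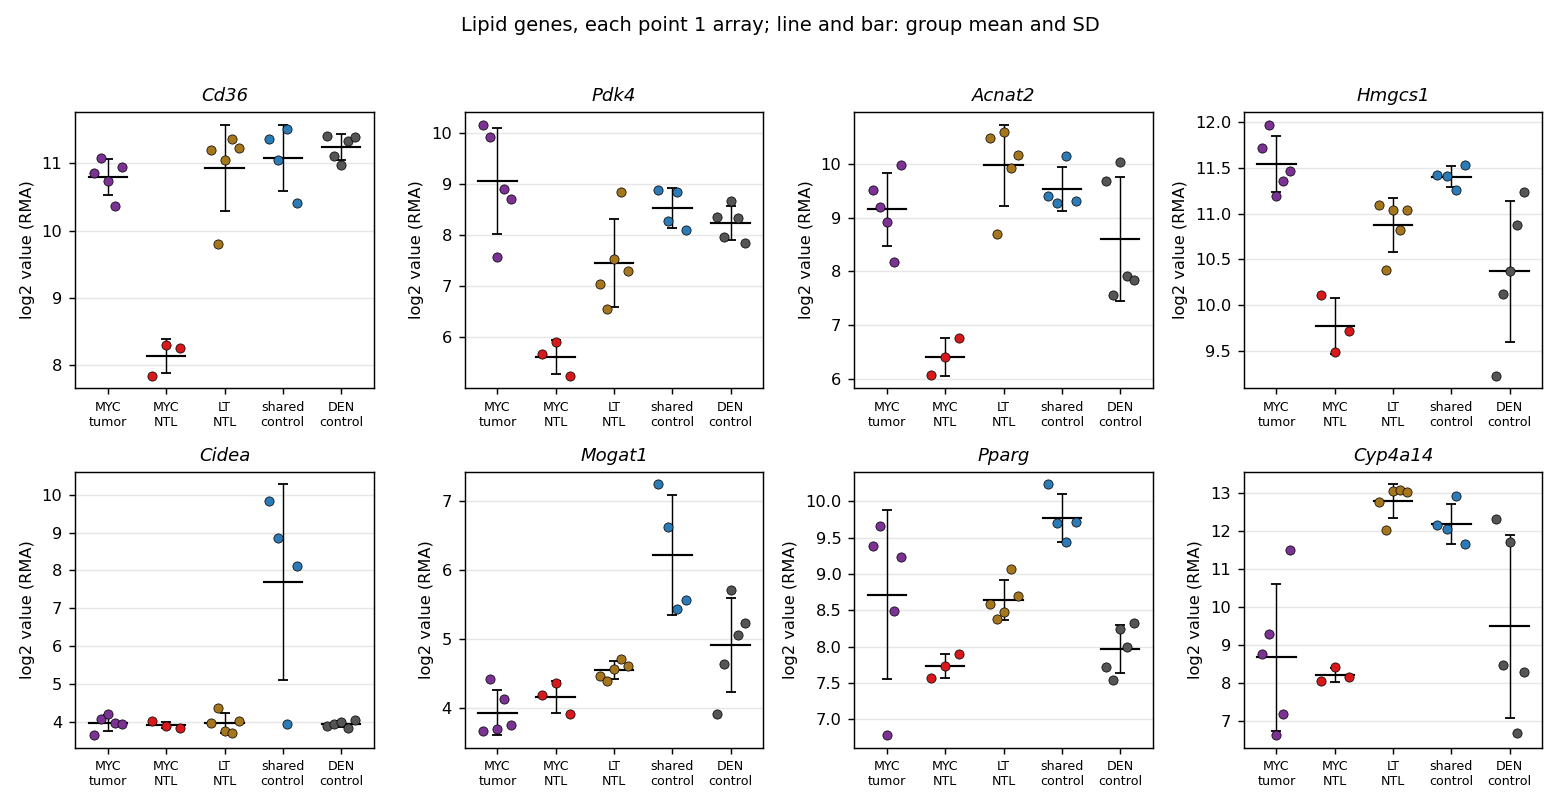
Log2 values of 8 lipid genes, with 1 point per array, in MYC tumors, MYC NTL, LT NTL, shared controls and DEN controls, with group means and SD. For Cd36 and Pdk4 the 3 MYC NTL arrays stand alone at the bottom, whereas for Cidea and Mogat1 the shared controls stand high (3 of 4 arrays for Cidea) and MYC NTL lies within the range of MYC tumors.

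Genes that differ between the sexes in mouse liver were compared because control replicate 3 had high Xist. All 14 female-biased genes measured had a change below 0, with a median of -1.93, and 3 were called lower, against 3.83% of all genes called. These values include control replicate 3. The mean level of the 14 ran from 6.30 to 9.97 over the controls, with a median of 6.63, and from 5.28 to 5.40 over MYC NTL. Cyp2b9, a female-biased P450 with close paralogs that probe sets can share, was 5.82, 6.13 and 5.88 in MYC NTL, against 11.60, 11.14, 13.12 and 9.39 in the controls. Control replicates 1, 2 and 4, with low Xist, were thus also far above MYC NTL. The change of -5.37 ± 1.44 (adjusted p 0.0286) was -4.77 without control replicate 3 and -6.01 without replicate 4, and 6 of the 7 fits that left out 1 array lost the call (highest adjusted p 0.114). Cyp17a1, a steroid hydroxylase, fell by 2.92 (SE 0.84, adjusted p 0.0437), a call likewise lost in 6 of these fits (highest adjusted p 0.136). Ntrk2, the receptor TrkB, was 4.61, 4.63 and 4.51 in MYC NTL, against 6.79, 6.76, 7.49 and 6.32 in the controls (-2.26 ± 0.30, adjusted p 1.88e-05), and it kept its call in each of the 7 fits. Ntrk2 lay between 4.61 and 5.26 in DEN controls.

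Of 22 male-biased genes, 21 had a change above 0 and 2 were called higher, both with close paralogs, against the same 3.83%. Control replicate 3 is included here too. The mean level of the 22 ran from 8.05 to 10.92 over the controls, with a median of 10.31, and from 11.11 to 11.37 over MYC NTL. Selenbp2, a selenium-binding protein, was 11.41, 11.09 and 11.26 in MYC NTL, against 8.99, 9.23, 8.65 and 10.77 in the controls (1.84 ± 0.46, adjusted p 0.0186). Ugt2b38, a glucuronosyltransferase, rose by 0.92 (SE 0.24, adjusted p 0.0242). Each was lost in 5 of the 7 fits that left out 1 array (highest adjusted p 0.0954 and 0.127). With the arrays of high Xist left out of the whole fit, Selenbp2 was at 1.59 (adjusted p 0.0124), Ugt2b38 at 0.74 (adjusted p 0.0762), Cyp2b9 at -4.77 (adjusted p 0.0505), Cyp17a1 at -2.63 (adjusted p 0.0762) and Ntrk2 at -2.04 (adjusted p 5.67e-05).

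Some of the largest rises were shared with MYC tumors or with DEN controls, and others stood in MYC NTL alone. H2-Ea (chromosome 17, 34341952 to 34344645), encoding the class II chain E alpha that C57BL/6 mice lack through a deletion in its promoter, was 7.77, 8.15 and 8.63 in MYC NTL, against 4.75, 4.32, 4.67 and 4.67 in the controls. It rose by 3.58 ± 0.39 (adjusted p 5.74e-07). The arrays of MYC tumors (8.85 to 9.65) and DEN controls (9.63 to 10.39) were high, and those of LT NTL (3.97 to 4.67) were low. Of the other class II genes none was called, and their list median was -0.67 over 9 genes with H2-Ea included. The other strain-variable genes on the list, Nnt, Glo1, Alad and Ide, differed by -0.51, 0.25, 0.35 and 0.21 (adjusted p 0.33, 0.516, 0.14 and 0.571), so 1 of 5 was called. Snord53, a small nucleolar RNA, was 9.85, 9.70 and 9.80 in MYC NTL, against 7.50, 7.28, 7.40 and 7.41 in the controls (2.39 ± 0.14, adjusted p 1.67e-12). It lay between 9.88 and 10.24 in DEN controls and between 7.16 and 7.67 in LT NTL, the same order of groups as H2-Ea.

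Corin, a membrane serine protease, was 8.07, 7.82 and 7.92 in MYC NTL, against 5.79, 5.63, 6.42 and 5.35 in the controls (2.14 ± 0.30, adjusted p 4.9e-05), and between 7.70 and 8.76 in MYC tumors. Asic5, an ion channel gene, was 9.02, 9.48 and 9.26 in MYC NTL, against 5.87, 6.37, 5.85 and 6.26 in the controls (3.17 ± 0.23, adjusted p 1.37e-10), and between 7.81 and 8.74 in MYC tumors. Both were low in DEN controls, where no array passed 5.54 in Corin and 6.77 in Asic5. Ctse, encoding the protease cathepsin E, was 9.47, 10.16 and 10.13 in MYC NTL, against 6.25, 6.26, 5.51 and 6.02 in the controls (3.91 ± 0.61, adjusted p 0.000181), and its level in DEN controls ran from 5.92 to 10.67.

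In contrast, Cabyr, Abhd1, Cyp46a1, Bud13 and Ccdc152 were lower in MYC tumors than in MYC NTL, with changes of -3.94, -2.48, -4.19, -1.06 and -2.26 (highest adjusted p 8.2e-07). Cabyr, for a calcium-binding protein known from sperm, was 9.65, 9.40 and 9.31 in MYC NTL, against 5.75, 6.21, 4.91 and 5.96 in the controls (3.74 ± 0.35, adjusted p 2.4e-08), and between 4.59 and 6.64 in MYC tumors. Abhd1, of the alpha/beta hydrolase family, was 9.75, 9.70 and 9.72 in MYC NTL, against 7.67, 7.82, 7.90 and 7.14 in the controls (2.09 ± 0.19, adjusted p 1.2e-08). Cyp46a1, cholesterol 24-hydroxylase, was 9.70, 9.82 and 10.04 in MYC NTL, against 7.78, 8.00, 7.25 and 6.36 in the controls (2.51 ± 0.26, adjusted p 1.5e-07), and lay between 5.38 and 6.11 in MYC tumors. Bud13, a splicing factor, rose by 1.33 ± 0.13 and Ccdc152 by 2.33 ± 0.25 (adjusted p 1.34e-07 and 5.74e-07). In all 5 genes the MYC NTL arrays lay above each of the other 32. Asic5, H2-Ea, Snord53, Corin, Ctse and these 5 genes kept their calls in each fit that left out 1 array. Corin, Abhd1 and Bud13 were named after their values were seen.

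**Figure D5:**
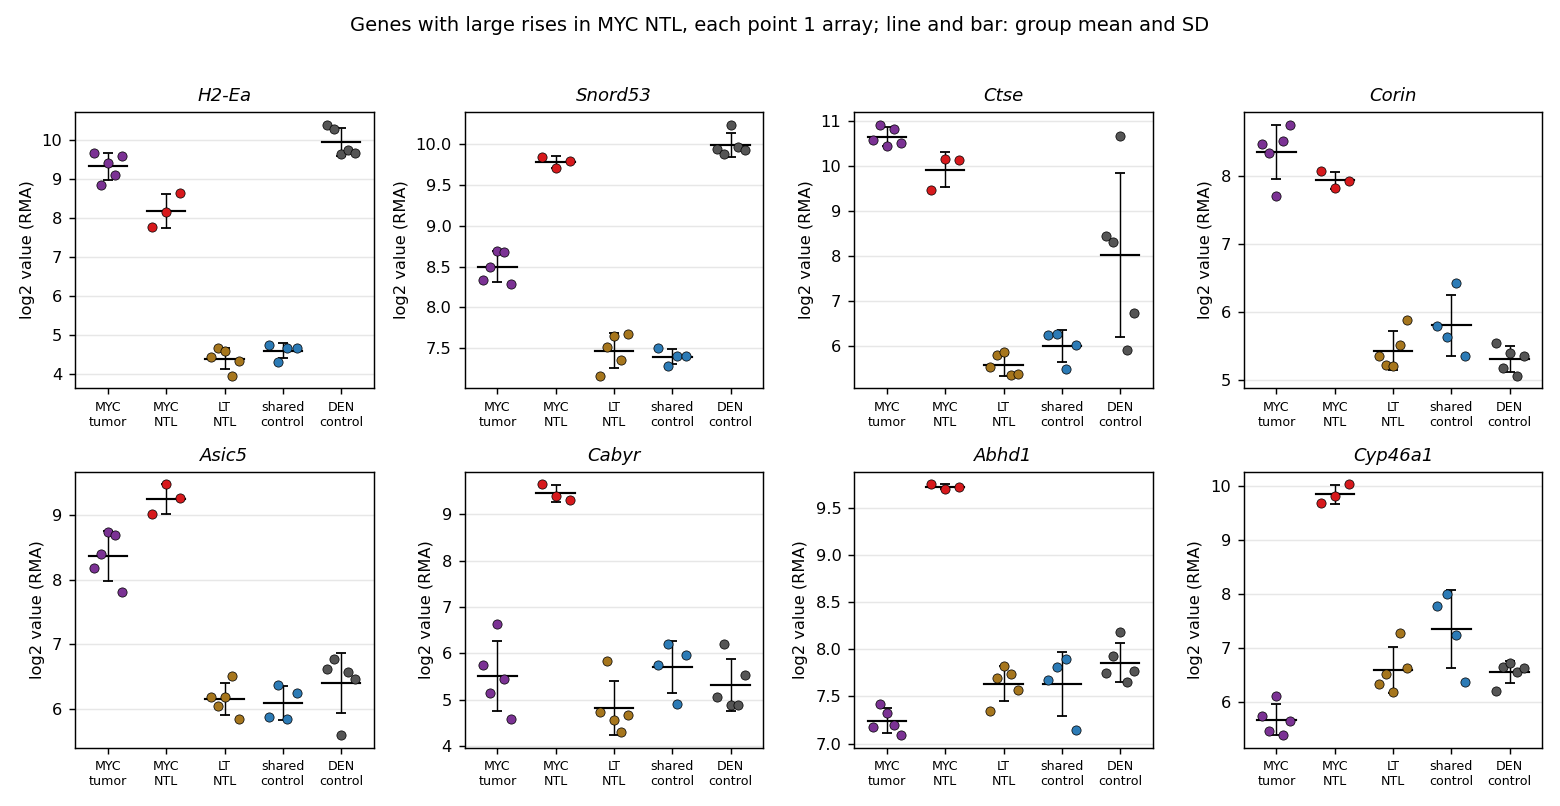
Log2 values of 8 genes with large rises in MYC NTL, with 1 point per array, in MYC tumors, MYC NTL, LT NTL, shared controls and DEN controls, with group means and SD. H2-Ea and Snord53 are high in DEN controls too, Corin and Asic5 in MYC tumors, and Cabyr, Abhd1 and Cyp46a1 in MYC NTL alone.

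Calls among stress genes were uneven over the lists, and the largest of these calls were Asns, Cdkn1a and Jun. None of 15 heat shock and cold genes and none of 17 NRF2 targets was called, which is near the 3.83% of all genes. Their changes were below 0 in 11 of the 15 and 15 of the 17, with medians of -0.13 and -0.26. The mean level of the NRF2 targets ran from 9.33 to 9.35 over MYC NTL and from 9.575 to 9.97 over the controls. Against DEN controls 14 of the 17 NRF2 targets were below 0, and against LT NTL 7 were below and 10 above. Asns, asparagine synthetase, was 9.91, 8.02 and 9.27 in MYC NTL, against 5.49, 5.72, 4.92 and 6.16 in the controls (3.50 ± 0.65, adjusted p 0.00149), and between 7.53 and 10.70 in MYC tumors. It was the single call among 22 genes of the endoplasmic reticulum stress and amino acid response, a share near the 3.83% of all genes called, and the median of the 22 was 0.01. Of 20 p53 targets, 4 were called lower and none higher, against 3.83% of all genes called, with a median of -0.24. Cdkn1a, the cell cycle inhibitor p21, was 6.05, 6.15 and 6.08 in MYC NTL, against 8.18, 7.63, 8.92 and 8.55 in the controls (-2.23 ± 0.50, adjusted p 0.00793), below each of the other 32 arrays, and MYC tumors lay between 9.45 and 11.08. Plk2, Btg2 and Fas fell by 1.02, 0.95 and 0.50 (adjusted p 0.0281, 0.0406 and 0.0466). Jun, of the AP-1 factor, was 7.62, 7.19 and 7.55 in MYC NTL, against 9.38, 9.24, 9.27 and 9.12 in the controls (-1.80 ± 0.38, adjusted p 0.00516). It was the largest fall of the 2 calls among 22 immediate early genes, again against 3.83% of all genes. Asns, Cdkn1a and Jun kept their calls without any single array, while Plk2, Btg2 and Fas were lost in 6, 7 and 5 of the 7 fits (highest adjusted p 0.197, 0.2 and 0.215).

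Further large changes belonged to none of the lists. Tubb2a, a beta-tubulin, was 5.71, 6.18 and 6.38 in MYC NTL, against 10.36, 9.69, 9.42 and 9.57 in the controls (-3.67 ± 0.47, adjusted p 1.23e-05), below each of the other 32 arrays. Serpinb1a, an inhibitor of neutrophil proteases, was 4.95, 4.88 and 4.77 in MYC NTL, against 7.66, 7.58, 9.28 and 7.18 in the controls (-3.06 ± 0.48, adjusted p 0.000181). Lgals1, encoding the lectin galectin-1, was 8.24, 8.12 and 8.28 in MYC NTL, against 11.23, 10.87, 10.45 and 9.97 in the controls (-2.42 ± 0.32, adjusted p 1.82e-05), and was named after its values were seen. Sytl5, of vesicle transport, fell by 2.64 (SE 0.46, adjusted p 0.000829), and Chrna4, a nicotinic receptor subunit, fell by 2.68 (SE 0.76, adjusted p 0.042). Pfkfb3, which makes an activator of glycolysis, and Clec2h, a lectin gene, rose by 2.20 ± 0.64 and 2.37 ± 0.69 (adjusted p 0.0481 and 0.0482). The calls of Chrna4, Pfkfb3 and Clec2h were lost in 5, 7 and 6 of the 7 fits that left out 1 array (highest adjusted p 0.176, 0.196 and 0.2), and those of Tubb2a, Serpinb1a, Lgals1 and Sytl5 were kept.

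Few markers of other liver cells were called in MYC NTL, though most of the immune cell genes had a change below 0. None of 18 Kupffer cell genes and none of 21 T and NK cell genes was called, with medians of -0.41 and -0.20. Since 3.83% of all genes were called, 0 or 1 call in a list of about this size is near background. The mean level of the Kupffer cell genes ran from 8.26 to 8.46 over the MYC NTL arrays and from 8.51 to 9.04 over the controls. Changes were below 0 in 16 of the 18 Kupffer cell and 20 of the 21 T and NK cell genes. The same held for 18 of 19 monocyte and neutrophil and 12 of 14 B and plasma cell genes. Over all genes it held for 9435 of 18820. The mean level of the monocyte and neutrophil genes ran from 5.205 to 5.29 over MYC NTL and from 5.49 to 5.89 over the controls. For B and plasma cell genes it ran from 5.62 to 5.68 and from 6.04 to 6.31. Lyz2, the lysozyme of macrophages and neutrophils, was the single call of 19 monocyte and neutrophil genes (-1.11 ± 0.27, adjusted p 0.0145), a call lost without MYC NTL replicate 1 (adjusted p 0.0915). Sdc1, a plasma cell marker that hepatocytes also make, was the single call of 14 B and plasma cell genes (-0.72 ± 0.20, adjusted p 0.0331), and Rspo3, a WNT enhancer from the central vein, that of 18 sinusoidal endothelial genes (-0.93 ± 0.25, adjusted p 0.0258). All 18 endothelial genes had a change below 0. All 18 were also higher in the shared controls than in DEN controls, with a median of 0.35. Between MYC NTL and DEN controls 7 of the 18 had a change above 0 and 11 below, with a median of -0.035. In that comparison 17 of 18 Kupffer cell and 18 of 19 monocyte and neutrophil genes were below 0. So were 17 of 21 T and NK cell and 12 of 14 B and plasma cell genes. Of the monocyte and neutrophil genes 4 were called lower there, and of the T and NK cell genes 1 higher and 1 lower. The background there was 4.4% of all genes called. In whole tissue, fewer cells of a type and less RNA per cell cannot be told apart. Il1b, of inflammatory macrophages, and Oasl1, an interferon-induced gene, fell by 1.00 and 1.11 (SE 0.24 and 0.25), each the single call of its list of 24. Apoa4, an intestinal and periportal apolipoprotein, fell by 1.33 (SE 0.32), and Klf1, of red cell precursors, Tsc22d3, a glucocorticoid target, and Ctrl, an acinar protease, rose by 0.87, 1.03 and 0.66 (SE 0.22, 0.27 and 0.18). Adjusted p-values of these 6 ran from 0.00862 to 0.0286. The calls of these genes and of Sdc1 and Rspo3 were lost without 1 or more single arrays, with highest adjusted p-values between 0.0589 (Oasl1) and 0.272 (Ctrl). Apoa4 was the single call of 18 periportal genes, Klf1 that of 6 erythroid genes and Ctrl that of 10 pancreatic acinar genes. Tsc22d3 was 1 of 2 calls among 15 glucocorticoid response genes.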

How the data were processed

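Liver RNA of 35 samples was measured on 1 Affymetrix gene array each, and samples were grouped by their titles. The deposited log2 values are the authors' RMA output, per the submitters' processing notes; RMA subtracts background, aligns array quantiles and summarises probes. Values ran from 1.81 to 14.25 and array medians from 5.59 to 5.73. Arrays carry no read depth, so their number limits the precision.

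Of 35556 probe sets, 21218 had 1 gene symbol, 1881 several and 12457 none in the platform annotation. The brightest probe set with 1 symbol was taken per gene, which gave 18820 genes, 1386 of them with more than 1 such probe set. Members of the lists without a probe set of their own, Nr1d1 and Dbp among them, were not analysed here. Coordinates and promoters are RefSeq's (GRCm38.p6). The linear model (limma 3.58.1, R 4.3.3) gave each of the 8 groups its own level on all 35 arrays, followed by eBayes and Benjamini-Hochberg adjustment. The exact permutation test used SciPy 1.17.1. The fit was tested on simulated data with known changes. No filter on dim genes was applied.

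The comparison, the lists and their members were chosen with earlier results of these data known. Genes named are 12 top rises and 12 top falls among the called (without predicted genes and large receptor families), members of the clock and strain lists, up to 5 called members of each other list in the direction of most calls and up to 2 in the opposite one, and MYC, hepatocyte and tumor markers. Uncalled members of the MYC network, sex chromosome and clock output lists are given by count or range. The genes Cd36, Pparg, Mogat1, G0s2, Gpam and Cidea were also gathered in a lipid list made after the values were seen, and Srebf1, Fasn, Pck1 and Lgals1 were named then too.

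Alternatives were the samples in the fit, normalization, filter, probe set choice, variance model, array weights, size of change, single arrays left out and a replicate block.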

Additional observations from a re-analysis of the deposited data

Results flagged for a closer look

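Within the 4 shared controls, 6 of the 92 genes with reported values had a highest or lowest array far from the other 3 by Dixon's test. Chance flags about 1 in 20 groups, so a number of this size is near what chance gives. In 4 of the 6 genes the array was control replicate 4: Myc at 9.56, Nfil3 at 8.90, Bhlhe40 at 8.09 and Oasl1 at 7.70. Control replicate 3 stood apart in Acnat2 at 10.14, and control replicate 2 in Insig2 at 11.43. Groups of 3 arrays, MYC NTL among them, were not tested. The cause of each was not tested.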

How the results depend on the processing

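The 721 calls between MYC NTL and shared controls became 1537 when the 2 groups alone were fitted, 1656 with the replicate block added to that fit, 2021 without the tumor groups, 2645 with array weights, 176 with a change of at least 2-fold required and 347 without control replicates 3 and 4. Leaving out 1 array at a time gave 299 (without MYC NTL replicate 1) to 660. Of 68 named genes called, none changed sign in any alternative; 34 were lost without MYC NTL replicate 1 and 29 without control replicates 3 and 4, and the block lost Cidea and Fas. Among genes that were never called, Myc ran from -0.999 to 0.53 over the fits without 1 array and was 0.46 with the block and 0.42 without control replicates 3 and 4. Cry1 ran from -0.14 to 0.29 (-0.064 on arrays with low Xist), Mki67 from -0.19 to 0.18 (0.0915 centred, 0.0889 with repeated quantiles, 0.0717 with low Xist) and Rora was 0.0192 centred. Bhlhe40 ran from -0.43 to 0.35 (-0.43 with the block, -0.0371 with weights, -0.35 without control replicates 3 and 4) and Afp from -0.0552 to 0.13 (-0.0263 with the block, -0.0196 with weights, -0.12 without control replicates 3 and 4, -0.0253 with low Xist). Xist was 0.04 without control replicates 3 and 4. With the 2 groups alone, MYC NTL against DEN controls gave 1843 calls and against LT NTL 2814, or 2879 when centred. Without 1 array, the calls ran from 324 to 692 against DEN controls, from 726 to 1739 against LT NTL, from 284 to 436 between the control groups and from 2728 to 3995 between MYC tumors and MYC NTL. Centring put 71.6% of calls against DEN controls and 81.2% against LT NTL higher in MYC NTL, against 36.1% and 43.2% as deposited. Except where an array was left out or the fit was built on other samples, the cause was not tested. Same-numbered MYC NTL and control arrays deviated from their group means with correlations over genes of -0.088, 0.172 and 0.008, so the numbers behind the block were not taken as pairs. Leaving out control replicates 3 and 4 together, and arrays with high Xist, was chosen after seeing the data.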
